A study of Mus musculus with 2 samples.

Results

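The miR-15, miR-16, miR-195, miR-322 and miR-497 family was represented by 8 entries of the deposited table, chosen by name: 6 mature miRNAs that share the family's seed and the passenger arms miR-15b-3p and miR-16-2-3p. The other passenger arms of the family, and other entries with the same seed, were not among them and are given separately. They were 8 of 1214 miRNA entries and of 1374 small RNA entries in all, and each had counts in both libraries. The first library came from exosomes, small vesicles released into the medium, of C57BL/6 mesenchymal stem cells (MSCs), connective tissue progenitors able to give rise to bone, cartilage and fat. The second came from exosomes of NIH3T3, an immortalised fibroblast line of NIH Swiss origin, which was the control for finding miRNAs enriched in the MSC vesicles. Both cultures had the same α-MEM with 5% fetal bovine serum for 72 hours, and the labels name no genetic change or added agent in either. Each group had 1 library, so no difference below has a replicate check, no test was made, and the brackets give 95% intervals for counting error alone.

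A miRNA guides the Argonaute protein to mRNAs that match its bases 2 to 8, the seed, and lowers their stability and translation. The miR-15 and miR-16 family is known for repressing cyclins D1, D3 and E1, Cdk6 and the survival factor Bcl2, and it holds cells in G1 when it is abundant. In stromal cells and fibroblasts its members accompany growth arrest and differentiation, and miR-16 is also among the miRNAs regularly found in serum and in vesicles.

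The mature sequences, from RefSeq on GRCm38.p6 (the mm10 assembly), are shown because the members differ outside the seed and because some are close enough to exchange reads. Capitals mark bases 2 to 8.
mmu-miR-16-5p: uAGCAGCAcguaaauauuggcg
mmu-miR-195a-5p: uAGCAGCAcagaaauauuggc
mmu-miR-15a-5p: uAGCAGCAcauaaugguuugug
mmu-miR-15b-5p: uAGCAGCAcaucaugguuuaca
mmu-miR-497a-5p: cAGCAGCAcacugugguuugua
mmu-miR-322-5p: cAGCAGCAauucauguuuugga
mmu-miR-15b-3p: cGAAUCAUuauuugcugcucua
mmu-miR-16-2-3p: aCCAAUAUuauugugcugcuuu

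All 8 members had a sequence, and 6 of them carried the seed AGCAGCA, while the passenger arms miR-15b-3p and miR-16-2-3p each had another. Counted from 1 at the 5′ end, miR-195a-5p differed from miR-16-5p by G10A and U11G alone over the 21 bases compared, with the base of miR-16-5p written first. miR-15b-5p differed from miR-15a-5p at 4 of 22 bases, all of them after the first 11. miR-322-5p and miR-497a-5p stood further from miR-16-5p, matching it at 12 and 11 of 22 bases when aligned at their 5′ ends. No source used here says how reads that fit more than 1 member were counted, so the split between miR-16-5p and the much rarer miR-195a-5p is uncertain.

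The family lies at 4 loci in mm10. miR-15a (5p arm at chr14:61632075-61632096) and one copy of miR-16-5p (chr14:61631936-61631957) lie on the minus strand in an intron of the long non-coding RNA Dleu2. miR-15b (5p arm at chr3:69009775-69009796) and the other copy of miR-16-5p (chr3:69009918-69009939) lie on the plus strand in an intron of Smc4, which encodes a condensin subunit. The 5p arms of miR-497a (chr11:70234730-70234751, plus strand) and miR-195a (chr11:70235062-70235082, plus strand) form a pair between other annotated genes, with the hairpin Mir497b annotated on the strand opposite to miR-497a. miR-322-5p (chrX:53054306-53054327, minus strand), the mouse counterpart of human miR-424, opens a cluster on the X chromosome.

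The libraries held 2500459 counts (MSC) and 1037147 counts (NIH3T3), of which 1028186 and 431007 were on miRNAs. Of the mesenchymal markers 7 of 7 listed were present, with a summed share of 24.9% of miRNA counts in MSC vesicles and 18.6% in NIH3T3 vesicles. Most of this was the joint entry of miR-199a-3p and miR-199b-3p (16.8% and 15.4%), and miR-214-3p held the least (0.0805% and 0.0566%). Markers of epithelium (2 of 5 in the table), red blood cells (3 of 4) and white blood cells (4 of 4) each stayed under 0.05% in both libraries, and those of endothelium (2 of 2) were at 0.0370% in MSC and 0.0768% in NIH3T3 vesicles. The hepatocyte miRNA miR-122-5p had 9759 counts in MSC vesicles and 3486 in NIH3T3 vesicles. Serum can bring vesicles and miRNAs of its own, and no source used here says if those were removed first. Its part in the family's counts was not tested. In RNA from the medium of a whole culture, fewer vesicles that carry a miRNA and less of it per vesicle cannot be told apart.

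miR-16-5p was by far the leading member, and the family spread over a range of levels. Levels are counts scaled to 1000000 miRNA counts per library (CPM), on mature RNAs of nearly equal length. miR-16-5p had 26461 counts in MSC vesicles and 9060 in NIH3T3 vesicles, which is 25736 CPM (25431 to 26044) and 21020 CPM (20596 to 21453). It ranked 8 of 1214 miRNA entries in MSC vesicles and 9 in NIH3T3 vesicles. Behind it came miR-322-5p with 4495 and 544 counts (4372 and 1262 CPM) and miR-15b-5p with 1169 and 396 counts (1137 and 919 CPM). Both held the same place in the family in each library, so the order of the 3 leading members was shared.

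Below them the libraries differed in order. In MSC vesicles miR-15b-3p (361 counts) was followed by miR-15a-5p (256), miR-16-2-3p (109), miR-497a-5p (85) and miR-195a-5p (39). Among these neighbours only miR-16-2-3p and miR-497a-5p did not differ beyond counting error. In NIH3T3 vesicles the order was miR-15b-3p (55), miR-195a-5p (52), miR-16-2-3p (35), miR-497a-5p (34) and miR-15a-5p (32), and no neighbour in it differed from the next beyond counting error. miR-195a-5p thus came last in MSC vesicles, where miR-15a-5p did in NIH3T3 vesicles.

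**Figure D1:**
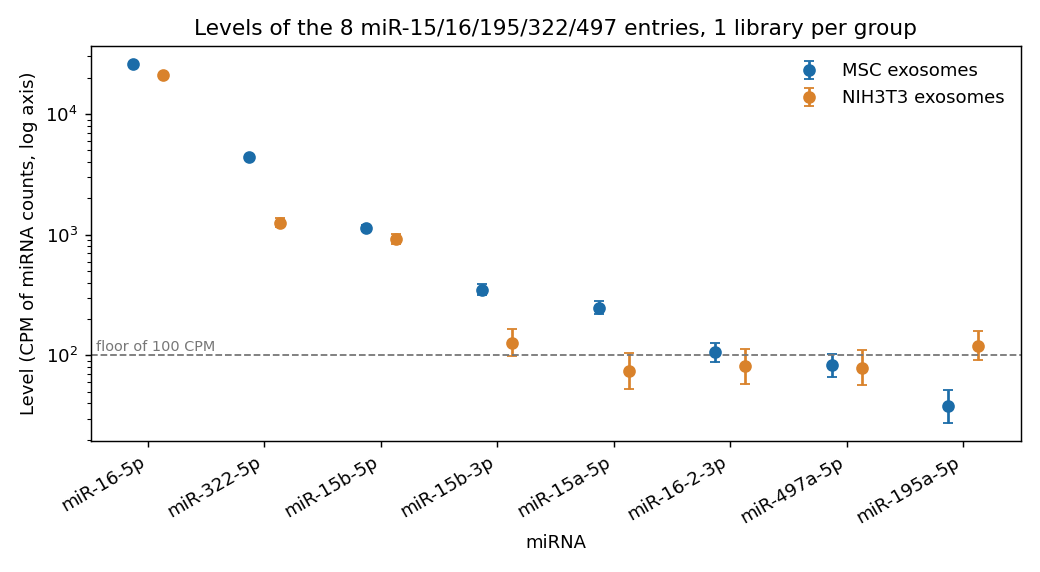
Level of each of the 8 family entries in CPM of miRNA counts on a log axis, for MSC (left point) and NIH3T3 exosomes (right point), with 95% Wilson intervals for counting error and 1 library per group. miR-16-5p stands at 21020 CPM or more in both, while miR-322-5p, miR-15b-3p and miR-15a-5p are higher in MSC exosomes and miR-195a-5p is lower.

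Of the 8 members, MSC vesicles had more of 3 and less of 1, and 4 differed by under 2-fold. Log2 ratios are those of MSC over NIH3T3 vesicles on the authors' deposited scale, with a constant worth 1 CPM added to each value, and a difference of 2-fold or more was called. Over a floor of 100 CPM in at least 1 library stood 7 of the 8 members, all but miR-497a-5p. Of these 7, 3 were called higher (42.9%), where 34% of all 318 miRNAs over the floor were, and 1 was called lower (14.3%), where 26.1% were. The median log2 ratio of the 7 was 0.15, against 0.28 over the 318. Read against these backgrounds, the counts show nothing particular to the family as a group, and its members went separate ways. miR-15a-5p and miR-16-2-3p passed the floor through their MSC level alone and miR-195a-5p through its NIH3T3 level alone, so the counts over the floor lend no support to a direction.

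**Figure D2:**
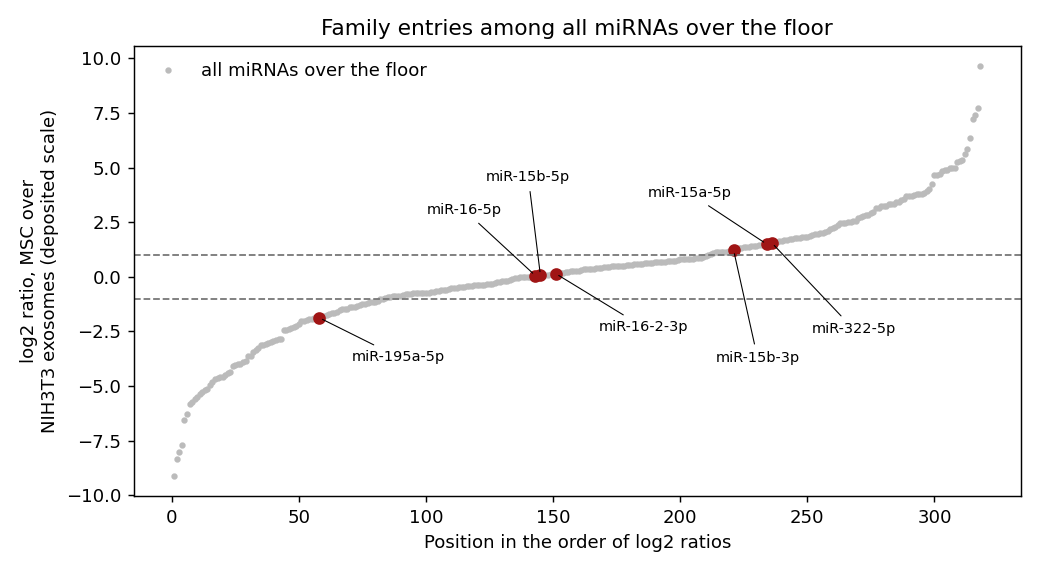
Log2 ratio of MSC over NIH3T3 exosomes for the 318 miRNAs over the floor, in rising order (grey), with the 7 family members over the floor in red and dashed lines at 2-fold. miR-16-5p, miR-15b-5p and miR-16-2-3p sit near 0, miR-15b-3p, miR-15a-5p and miR-322-5p above the upper line and miR-195a-5p below the lower one.

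The guide strands miR-16-5p and miR-15b-5p differed little between the libraries. For miR-16-5p, the archetypal member, the deposited log2 values were 14.08 in MSC and 14.03 in NIH3T3 vesicles and the log2 ratio was 0.06 (0.02 to 0.09). miR-15b-5p, made from the same Smc4 intron, had deposited log2 values of 9.58 and 9.51 and a log2 ratio of 0.07 (-0.09 to 0.24). The sign of both depended on the scaling, with ratios of 0.29 and 0.31 when each library was scaled by its miRNA total and -0.22 and -0.20 when centred on the median. Neither came near 2-fold under any of these.

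miR-322-5p, which in mouse myoblasts promotes cell cycle exit through Cdc25a, was the most abundant of the members that differed. It had 4495 counts in MSC vesicles and 544 in NIH3T3 vesicles, ranking 43 and 76 among miRNAs. The log2 ratio was 1.56 (1.43 to 1.69), or 2.94-fold higher in MSC vesicles, and the whole interval lay beyond 2-fold, as it did for 27.4% of the 318 miRNAs in this direction. Over the scalings tried the ratio ran between 1.28 and 1.79.

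miR-15a-5p, the neighbour of miR-16-1 in the Dleu2 intron, was also higher in MSC vesicles. It had 256 counts there and 32 in NIH3T3 vesicles, or 249 CPM (220 to 281) and 74.2 CPM (52.6 to 105), and the 2 intervals did not overlap. It was 2.83-fold higher in MSC vesicles, with a log2 interval of 0.98 to 2.09 whose lower end fell just short of 2-fold. Its paralogue miR-15b-5p, with the same seed and 18 of 22 bases in common, did not follow it. The ratio of miR-15a-5p to miR-15b-5p was 0.219 in MSC and 0.0808 in NIH3T3 vesicles, a 2.71-fold difference that no library scaling affects (log2 1.44, 0.88 to 2.04).

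miR-195a-5p, linked in the mouse heart to the arrest of cardiomyocyte division after birth, went the opposite way. It had 39 counts in MSC vesicles and 52 in NIH3T3 vesicles, 37.9 CPM (27.7 to 51.8) and 121 CPM (92.0 to 158), and the intervals were apart. The log2 ratio was -1.87 (-2.54 to -1.28), or 3.67-fold lower in MSC vesicles, with the interval wholly beyond 2-fold, as for 22.6% of the 318 miRNAs in this direction. For every 1000 counts of the near-identical miR-16-5p there were 1.47 of miR-195a-5p in MSC and 5.74 in NIH3T3 vesicles, so exchange of a small part of the miR-16-5p reads could alter these counts, and this was not tested.

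miR-497a-5p, encoded beside miR-195a and long known to be transcribed with it, did not share this difference. It had 85 counts in MSC vesicles and 34 in NIH3T3 vesicles, which is 82.7 CPM (66.9 to 102.2) and 78.9 CPM (56.5 to 110). Its log2 ratio was -0.17 (-0.76 to 0.45). The passenger arms of the pair, on few counts and under the floor, did not repeat this contrast. miR-497a-3p had 13 counts in each library (-1.41, -2.72 to -0.26), and miR-195a-3p had 11 in MSC and 4 in NIH3T3 vesicles (-0.03, -1.785 to 2.08). The contrast is thus one of the 5p arms alone. The ratio of miR-497a-5p to miR-195a-5p was 2.18 in MSC and 0.654 in NIH3T3 vesicles, a difference of 3.33-fold (log2 1.74, 0.85 to 2.63).

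**Figure D3:**
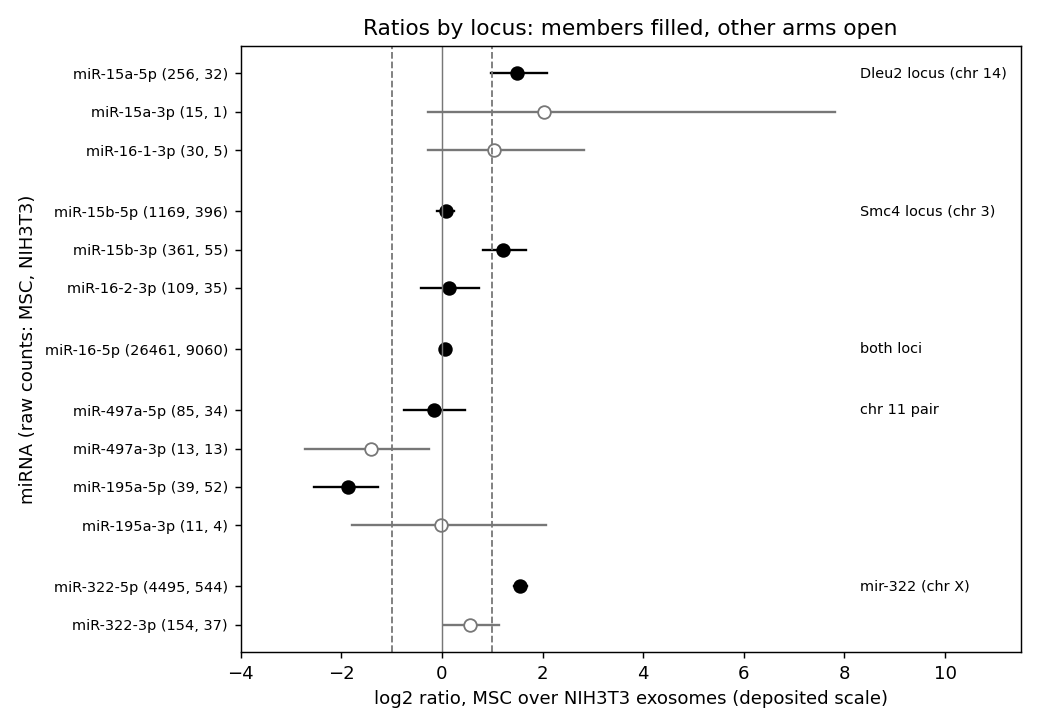
Log2 ratio of MSC over NIH3T3 exosomes with 95% counting intervals for the family's members (filled) and the other arms of their hairpins (open), grouped by locus, with raw counts of the MSC and then the NIH3T3 library after each name and dashed lines at 2-fold. Of the members, miR-322-5p and miR-195a-5p have intervals wholly beyond a dashed line, and most other arms have few counts and wide intervals.

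Added together, the family made up a larger share of miRNA counts in MSC vesicles, with less of it miR-16-5p and more of it miR-322-5p than in NIH3T3 vesicles. All 8 members held 3.21% of miRNA counts in MSC vesicles (3.17 to 3.24) and 2.37% in NIH3T3 vesicles (2.32 to 2.41). With the most abundant other miRNAs (the 10 leading ones of each library) left out of the denominator, the shares came closer, at 7.09% and 6.90%. On the deposited scale the summed counts of the 6 seed-bearing members, 32505 in MSC and 10118 in NIH3T3 vesicles, came to a log2 ratio of 0.19 (0.16 to 0.23), or 1.14-fold, which turned to -0.082 when centred on the median. Without miR-16-5p the other 5 summed to 6044 and 1058 counts, and their log2 ratio was 1.02 (0.93 to 1.12).

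Within the seed-bearing counts, miR-16-5p accounted for 81.4% in MSC vesicles (81.0 to 81.8) and 89.5% in NIH3T3 vesicles (88.9 to 90.1). miR-322-5p took 13.8% (13.5 to 14.2) and 5.38% (4.95 to 5.83). These shares do not depend on how the libraries were scaled. miR-15b-5p kept nearly the same part of the family, at 3.60% (3.40 to 3.80) in MSC and 3.91% (3.55 to 4.31) in NIH3T3 vesicles. miR-15a-5p, miR-497a-5p and miR-195a-5p were each under 1% in both. For every 1000 counts of miR-16-5p there were 170 of miR-322-5p in MSC and 60.0 in NIH3T3 vesicles (log2 interval of the difference 1.37 to 1.64). Set against miR-16-5p in the same way, the log2 difference was 0.02 for miR-15b-5p (-0.15 to 0.19) and -1.96 for miR-195a-5p (-2.60 to -1.33).

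A hairpin is cut into a 5p and a 3p arm, of which usually one is kept as the guide and the other, the passenger, is mostly degraded. The hairpins of miR-15b and miR-322 are printed here, with both mature arms in capitals, since their arms differed between the libraries in opposite directions.
Mir15b (chr3:69009772-69009835, plus strand): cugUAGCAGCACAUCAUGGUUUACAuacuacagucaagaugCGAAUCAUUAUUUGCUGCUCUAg
Mir322 (chrX:53054255-53054349, minus strand): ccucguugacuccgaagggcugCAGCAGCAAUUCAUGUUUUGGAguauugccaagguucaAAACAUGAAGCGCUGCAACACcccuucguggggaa

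In miR-15b the passenger arm took a larger part in MSC vesicles. miR-15b-3p had 361 counts in MSC vesicles and 55 in NIH3T3 vesicles (log2 ratio 1.22, 0.81 to 1.66), whereas the 5p arm of the same hairpin was alike in the libraries. The 5p arm made up 76.4% of both arms in MSC vesicles (74.2 to 78.5) and 87.8% in NIH3T3 vesicles (84.5 to 90.5). miR-15b-3p was no longer called higher when ratios were centred on the median (0.94).

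In miR-322 the 5p arm took the larger part in MSC vesicles. Its passenger miR-322-3p had 154 counts in MSC vesicles and 37 in NIH3T3 vesicles, with a log2 ratio of 0.56 (0.04 to 1.13). The 5p share was 96.7% (96.1 to 97.2) in MSC and 93.6% (91.4 to 95.3) in NIH3T3 vesicles. The log2 difference of the 5p to 3p ratio was 0.99 for miR-322 (0.41 to 1.53) and -1.15 for miR-15b (-1.62 to -0.70). Differences of this kind were common, since 26 of 35 hairpins with at least 30 counts on each arm in both libraries, these included, had an interval apart from 0 (74.3%).

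For miR-15a, miR-16, miR-195a and miR-497a a difference in arm shares between the libraries was not detectable at these depths. The passenger miR-15a-3p, under the floor, had 15 counts in MSC vesicles and 1 in NIH3T3 vesicles (log2 ratio 2.04, -0.28 to 7.81). miR-16-2-3p, the passenger of the Smc4 copy of miR-16, had 109 counts in MSC vesicles and 35 in NIH3T3 vesicles (log2 ratio 0.15, -0.41 to 0.74). miR-16-1-3p, that of the Dleu2 copy, had 30 and 5. The guide strand is identical from both copies, and these arms alone tell them apart. miR-16-2-3p made up 78.4% of the 2 passengers in MSC vesicles (70.9 to 84.4) and 87.5% in NIH3T3 vesicles (73.9 to 94.5), intervals that overlap. The 5p share of miR-16 with both passengers counted was 99.5% in MSC and 99.6% in NIH3T3 vesicles.

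**Figure D4:**
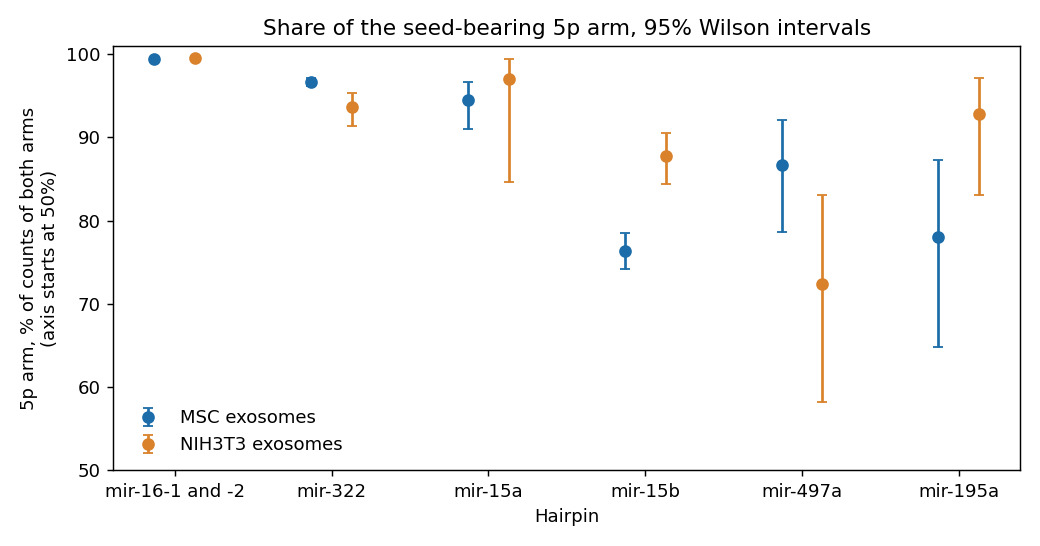
Share of the seed-bearing 5p arm among the counts of both arms for each family hairpin, in percent on an axis that starts at 50, with 95% Wilson intervals, for MSC (left point) and NIH3T3 exosomes (right point). The intervals are apart for mir-322, higher in MSC exosomes, and for mir-15b, lower in MSC exosomes, and overlap for the others.

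By locus, without miR-16-5p that cannot be assigned, the Dleu2 entries summed to 301 counts in MSC and 38 in NIH3T3 vesicles (log2 ratio 1.49, 1.01 to 2.02). The Smc4 entries summed to 1639 and 486 (0.26, 0.12 to 0.41). The 4 entries of the pair on chromosome 11 summed to 148 and 103 (-0.96, -1.34 to -0.59), and the 2 arms of miR-322 to 4649 and 581 (1.51, 1.39 to 1.64). On this scale these sums differed in direction as well as in size, with the Smc4 sum near the median of 0.28 over the 318 miRNAs. Single miRNAs dominated 2 of them, miR-15a-5p the Dleu2 sum (256 and 32 counts) and miR-322-5p its own (4495 and 544). The miR-322 sum leaves out the rest of its cluster on the X chromosome. The most abundant entry there, miR-351-5p, had 14856 and 6845 counts (-0.37), so this sum does not stand for the whole cluster. The chromosome 11 sum rests partly on miR-195a-5p, whose split from miR-16-5p is uncertain. Its leading entry was miR-497a-5p in MSC vesicles (85 counts, against 39 of miR-195a-5p). In NIH3T3 vesicles it was miR-195a-5p by a small lead (52, against 34 of miR-497a-5p).

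Unlike miR-322-5p, most other entries of its cluster lay within 2-fold. The cluster holds the seed relative miR-503, miR-542 and miR-450 with other seeds, and miR-351, which carries the seed of miR-125. In all 12 entries lay within 6320 bases of the X chromosome (chrX:53048008-53054327). miR-503-5p, which works with miR-322 in myoblasts and ends its seed in another base (AGCAGCG), is printed for comparison.
miR-503-5p: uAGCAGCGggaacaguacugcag

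miR-503-5p lay 278 bases downstream of miR-322-5p, measured between their 5′ ends, and had 988 counts in MSC vesicles and 415 in NIH3T3 vesicles (log2 ratio -0.24, -0.40 to -0.07). miR-351-5p, 989 bases downstream and the most abundant of the cluster, had 14856 and 6845 counts (-0.37, -0.41 to -0.33). Both were within 2-fold, where miR-322-5p was not. The ratio of miR-322-5p to miR-503-5p was 4.55 in MSC and 1.31 in NIH3T3 vesicles, a 3.47-fold difference free of any scaling (log2 1.80, 1.58 to 2.01).

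Of the 11 other entries of the cluster, 9 were within 2-fold, miR-351-3p was lower (113 counts in MSC and 128 in NIH3T3 vesicles, log2 ratio -1.66, -2.05 to -1.29), and miR-450a-5p was higher on few counts (21 and 3, log2 ratio 1.21, -0.43 to 3.71). Their median log2 ratio was 0.39. For miR-322-3p, miR-542-3p and miR-450b-5p, called neither, the interval still reached past 2-fold higher (upper ends 1.13, 1.09 and 1.26). Of the 18 other arms and genomic neighbours listed for the family as a whole, 16 were in the table and 7 were over the floor, of which 0 were called higher, 1 lower and 6 neither, where 34% of the 318 miRNAs over the floor were higher and 26.1% lower. Without a floor, 3 of the 16 were higher, 3 lower and 10 neither, and 23.8% of all 1214 miRNA entries were called higher, 25.5% lower and 50.7% neither. The arms of miR-503 and miR-351 differed in opposite directions. The 5p share of miR-503 was 66.5% in MSC (64.0 to 68.8) and 77.9% in NIH3T3 vesicles (74.1 to 81.2). That of miR-351 was 99.2% (99.1 to 99.4) and 98.2% (97.8 to 98.5). The log2 difference of the 5p to 3p ratio was 1.298 (0.92 to 1.68) for miR-351 and -0.83 (-1.17 to -0.49) for miR-503.

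**Figure D5:**
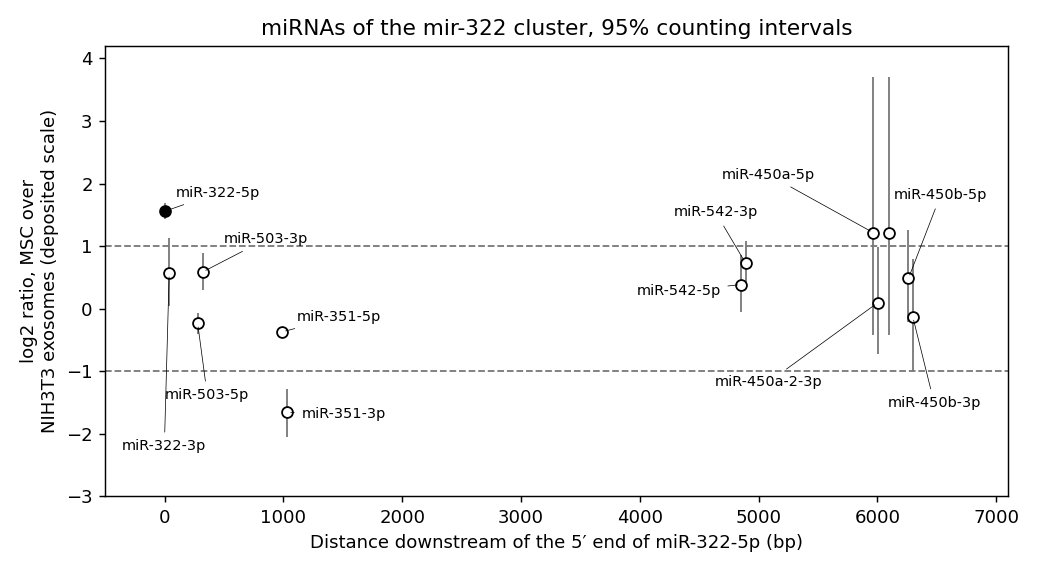
Log2 ratio of MSC over NIH3T3 exosomes for the 12 miRNA entries of the mir-322 cluster against the distance of their 5′ ends downstream of miR-322-5p (filled), with 95% counting intervals and dashed lines at 2-fold; miR-450a-5p has 2 positions and is drawn at each. miR-322-5p is at 1.56, whereas its neighbours miR-503-5p and miR-351-5p are at -0.24 and -0.37.

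Besides the 6 members, 2 further entries carried the seed AGCAGCA among the 1052 miRNA entries with a RefSeq sequence (8 in all, 0.76%). They are given to show how they differ from the members beyond the seed.
miR-195b: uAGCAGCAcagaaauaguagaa
miR-6419: cAGCAGCAaucugacacaugga

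miR-195b (chr2:56785825-56785846, plus strand, between genes) shares its first 16 bases with miR-195a-5p and had 7 counts in MSC vesicles and 16 in NIH3T3 vesicles (log2 ratio -2.50, -4.21 to -1.32). Like miR-195a-5p it was lower in MSC vesicles, but the sequences overlap so far that the counts may not be independent. miR-6419 (chr2:17563541-17563562, plus strand, on the strand opposite to an intron of Nebl) shares its first 10 bases with miR-322-5p and had 33 and 5 counts (1.17, -0.13 to 2.95). Both lay under the floor.

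By level in both libraries, the miRNAs over the floor closest to miR-16-5p were miR-29a-3p (distance 0.53 in log2 CPM over the 2 libraries) and let-7f-5p (0.60). Those closest to miR-322-5p were miR-30a-5p (0.34) and miR-130a-3p (0.48). miR-15b-5p lay closest to miR-872-3p (0.11) and miR-503-5p (0.25), miR-15a-5p to miR-25-5p (0.10) and miR-129-5p (0.28), and miR-195a-5p to miR-467f (0.13) and miR-34b-3p (0.14). With 2 libraries such a distance is only a likeness of 2 numbers.

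Of 16 miRNAs of other families known to act on the cell cycle, 14 passed the floor. Among these, 5 were lower in MSC vesicles (35.7%, against 26.1% of all 318), 9 lay within 2-fold and 0 were higher (against 34% of all 318), with a median log2 ratio of -0.50 beside 0.28 over the 318. Of the 5 lower ones, miR-34a-5p and miR-17-5p reached the floor in NIH3T3 vesicles but not in MSC vesicles. The most abundant were let-7b-5p (0.34) and miR-221-3p (-0.38), followed by miR-25-3p (0.81). miR-103-3p, whose first bases are those of the family's seed moved by 1 position and which is named for that, was lower, with 726 counts in MSC and 623 in NIH3T3 vesicles (-1.27, -1.42 to -1.11). Its paralogue miR-107-3p, with the same first bases, was within 2-fold, with 327 and 178 counts (-0.61, -0.88 to -0.34). The list mixes miRNAs that slow and that promote division, and it was chosen with earlier results of these data known.

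Among blood and serum miRNAs, 7 of 8 listed were in the table. The red blood cell miRNA miR-451a, which accompanies miR-16 in haemolysed serum, had 27 counts in MSC vesicles and 26 in NIH3T3 vesicles (log2 ratio -1.40, -2.27 to -0.60). miR-486b-5p had 95 and 65 (-0.93), and miR-92a-3p had 159 and 65 (-0.20). The most abundant of the list was miR-122-5p, given above, with 0.949% of miRNA counts in MSC vesicles and 0.809% in NIH3T3 vesicles. The white blood cell miRNA miR-142a-3p had 121 and 142 counts (-1.71, -2.08 to -1.36). Another of the list from white blood cells, miR-223-3p, went the other way with 84 and 17 (0.80, 0.05 to 1.66), under the floor. The last of the list, miR-486a-5p, had 61 and 30 (-0.46, -1.12 to 0.22). Of the remaining white blood cell markers, miR-150-5p had 30 and 6 (0.79, -0.46 to 2.39) and miR-142a-5p 21 and 8 (-0.09, -1.33 to 1.29).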

How the data were processed

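Small RNA of exosomes from 1 MSC and 1 NIH3T3 culture was compared. Per the labels' protocols, RNA was taken from the medium with an exoRNeasy kit and sequenced from QIAseq miRNA libraries, and the same text also speaks of a microarray. The deposited table holds whole-number raw counts per the file headers. Whether they count reads or molecular identifiers, and the aligner and counter, are not stated in the sources used here. The submitters' processing notes name mm10 as the genome. The second pair of columns deposited by the authors holds log2 values, which equalled the log2 of the count times 0.655 (MSC) or 1.84 (NIH3T3). No source used here says how these factors were set. The lowest count of an entry in its higher library was 10.

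Ratios used these factors and an added 0.734, which is 1 CPM of the mean miRNA total. The 160 piRNA entries were left out of CPM. Intervals (95%) are Clopper-Pearson for ratios of counts, Wilson for shares and levels, and conditional exact for ratios of ratios, computed with SciPy 1.17.1. Only those for ratios of counts were checked on simulated data. All the intervals cover counting error only, and are too narrow if PCR copies were counted. A count of 0 would allow up to 2.92 CPM (MSC) or 6.96 CPM (NIH3T3). No test was made with 1 library per group. Host genes came from GENCODE M21 and sequences from RefSeq, both on the build of the table.

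The named miRNAs were the 8 members, their other arms and cluster neighbours, entries with the same seed, the 2 nearest by level for each seed-bearing member over the floor, and fixed lists of cell cycle, blood and marker miRNAs. Members and lists were chosen with earlier results of these data known. Pairs set against each other as ratios of ratios, and the minimum of 30 counts per arm, were chosen after the values were seen. Other scalings, added constants, floors and call rules were tried.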

Additional observations from a re-analysis of the deposited data

How the results depend on the processing

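The 4 members beyond 2-fold kept their direction under all 4 other scalings and the larger added constant (10 CPM), and of their calls only that of miR-15b-3p was lost, when centred. miR-322-5p ran from 1.28 to 1.79, miR-15a-5p from 1.22 to 1.73 and miR-195a-5p from -2.15 to -1.64. Over all 8 members, 28 recomputed ratios stayed inside the counting interval of the reported value and 12 did not. The summed log2 ratio of the seed-bearing members was 0.43 scaled by the miRNA total, 0.41 by all entries, -0.082 when centred, 0.026 scaled without the 10 leading miRNAs of each and 1.02 without miR-16-5p. The median of all 318 miRNAs was 0.51, 0.49, 0 and 0.11 under these 4 scalings. With a floor of 1000 CPM, which leaves 3 members, 1 was higher and 0 were lower. Of all 105 miRNAs over that floor, 32.4% were higher and 23.8% lower. With intervals wholly beyond 2-fold, 1 of the 7 members was higher and 1 lower, where 27.4% and 22.6% of the 318 miRNAs were. The family share was 1.32% in MSC and 0.984% in NIH3T3 vesicles of all counts, piRNAs included, and 7.09% and 6.90% without the 10 most abundant other miRNAs. The 5p share of miR-16 in MSC vesicles was 99.6% with the Smc4 passenger alone and 99.5% with both. Leaving out a replicate could not be done with 1 library per group. No paired analysis was possible because each group has 1 library.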
